A study of Mus musculus with 15 samples.

Results

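The nuclear receptors through which hepatocytes read bile acids, oxysterols, fatty acids, xenobiotics, glucocorticoids and thyroid hormone were followed across 5 groups of cultured mouse hepatocytes. The members listed were Nr1h4 (FXR), Nr1h3 and Nr1h2 (LXRα and LXRβ), Nr1i2 (PXR), Nr1i3 (CAR), Ppara, Rxra, Rxrb, Nr3c1 (the glucocorticoid receptor) and Thrb (thyroid hormone receptor β), 10 genes in all, chosen by name. A gene was read from the probe set whose only annotated symbol is that gene, and 8 of the 10 had such a probe set, out of 18820 genes read in this way. Nr1h2 and Nr1i3 had none and were not analysed here. Each of the 8 had 1 probe set, so no choice among probe sets was made.

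Primary hepatocytes of male C57BL/6J mice were transduced with adenoviruses for human FXRα1, FXRα2, FXRα3 or FXRα4, each of which also expresses GFP, or with a virus for GFP alone. The 5 groups had 3 Affymetrix arrays each, 15 in all. All cells were kept first with 0.1 µM dexamethasone, a glucocorticoid, and 1 nM insulin, spent the last 24 h without either, and gave RNA 36 h after transduction. The isoforms differ in the MYTG insert beside the DNA-binding domain, present in FXRα1 and FXRα3 and absent from FXRα2 and FXRα4, and in the N-terminus, longer in FXRα3 and FXRα4 and shorter in FXRα1 and FXRα2. The transgenes are human and driven by a viral promoter, and the Nr1h4 probe set is annotated to the mouse gene. How far its probes also take up the human transcript was not tested. The labels do not say that arrays of a group came from separate animals or cultures, so each p-value rests on a spread between arrays that may be purely technical.

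Nuclear receptors are transcription factors switched by small lipophilic ligands. FXR, LXR, PXR, CAR, PPARα and thyroid hormone receptor bind DNA mostly as heterodimers with an RXR, at pairs of a hexamer close to AGGTCA, whereas the glucocorticoid receptor binds its own palindromic element as a dimer. In liver FXR restrains bile acid synthesis and drives bile acid export, PXR induces drug-metabolizing enzymes and transporters, PPARα drives fatty acid oxidation during fasting, LXRα drives lipogenic and sterol-export genes, and the glucocorticoid receptor supports gluconeogenesis and amino acid catabolism.

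All values below are the authors' normalized log2 values, and a fold change is a difference of them. A gene is said to have risen or fallen where limma, fitted to all 15 arrays, gave an adjusted p under 0.05 over the 18820 genes. Over genes, which do not count as replicates, r between arrays was 0.997 to 0.999 inside a group and 0.985 to 0.998 between groups. Hepatocyte markers were abundant, with Alb (albumin) averaging 13.1, and 11 of 12 listed were measured. Their mean level on single arrays lay between 10.36 and 10.37 in FXRα1, 10.44 and 10.51 in FXRα2, 10.40 and 10.45 in FXRα3, and 10.38 and 10.42 in FXRα4, against 10.23 to 10.25 in GFP. The 6 measured cholangiocyte markers of 8 averaged 6.07 to 6.17 in FXRα1, 6.33 to 6.39 in FXRα2, 6.23 to 6.27 in FXRα3 and 6.46 to 6.57 in FXRα4, against 5.69 to 5.76 in GFP. Of them Krt19 averaged 9.44 over the 15 arrays, at percentile 86.4 of genes, and Cftr 3.02, at percentile 4.68. Krt19 rose by 1.32 with FXRα1 and 1.76 with FXRα3 and fell by 1.82 with FXRα2 and 0.93 with FXRα4, all against GFP. Epcam rose by 0.68, 4.95, 0.74 and 4.68 with FXRα1 to FXRα4, and Sox9 by 0.45, 1.05, 0.63 and 1.06, while Krt7, Cftr and Prom1 passed with none on the deposited scale. The median change of the 6 was 0.21, -0.10, 0.35 and -0.05, so the higher mean with FXRα2 and FXRα4 rests on Epcam and Sox9. The means of both lists move with the virus, and their part in the receptor levels was not tested. Lists for Kupffer cells, sinusoidal endothelium, stellate cells, and lymphocytes and neutrophils averaged between 3.62 and 4.98 on every array. Single genes of them lay higher, such as Cd68 of the Kupffer list (8.82, percentile 79.5) and Cdh5 of the endothelial list (6.07, percentile 52.2).

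Of the 8, Nr1i2 moved most, followed by Ppara, and both were highest in the 3 arrays of FXRα2. Nr1i2 group means spanned 2.12 on the log2 scale and Ppara group means 0.86, while the other 6 measured receptors spanned 0.14 to 0.43. Against GFP, 2 of the 8 receptors changed with FXRα1 (1 up, 1 down), where 12.4% of all genes were called (8.42% higher, 4% lower). With FXRα2 4 of 8 changed (3 up, 1 down) against a background of 34.3% (17.5% higher, 16.7% lower). With FXRα3 it was 3 of 8 (0 up, 3 down) against 14.1% (7.45% higher, 6.62% lower), and with FXRα4 2 of 8 (1 up, 1 down) against 33.8% (18% higher, 15.7% lower). Centring the arrays on their medians takes the median change of all genes with FXRα4 from -0.03 to -0.24, a shift of -0.21. After it 7 of 8 receptors were called there (1 up, 6 down), beside 62.6% of all genes. So few genes cannot be read as standing apart from these backgrounds. The median receptor change was 0.05 for FXRα1 (0.00 over all genes), 0.15 for FXRα2 (-0.05), -0.14 for FXRα3 (-0.00) and -0.04 for FXRα4 (-0.03). In the mean level over the 15 arrays, Rxra stood at percentile 81.4 of all genes, Nr3c1 at 79.7, Nr1h3 at 75.3 and Rxrb at 73.1. Nr1h4 stood at percentile 60.4, Ppara at 55.2, Nr1i2 at 54.4 and Thrb at 53.9.

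**Figure D1:**
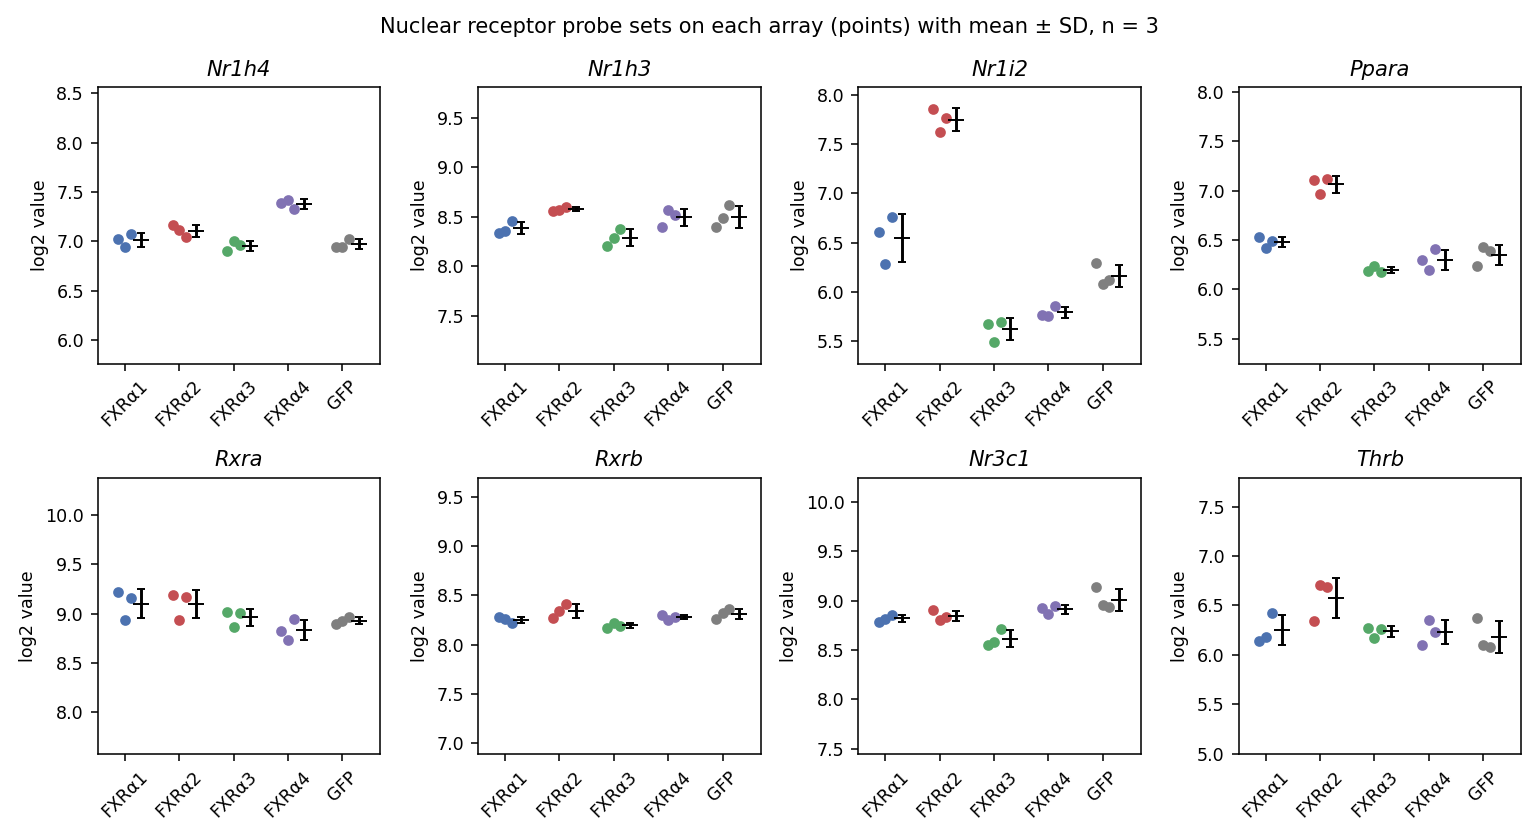
Log2 values of the 8 measured receptors on the 15 arrays, 1 panel a gene, with the groups FXRα1, FXRα2, FXRα3, FXRα4 and GFP from left to right; points are arrays, bars are the mean ± SD (n = 3), and all panels span the same number of log2 units. Nr1i2 has the widest spread of group means (2.12) and Rxrb the narrowest (0.14), and the FXRα2 arrays are the highest for Nr1i2 and Ppara, while the FXRα4 arrays are the highest for Nr1h4.

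Nr1h4, read by a probe set for the mouse gene while human isoforms of the receptor were delivered, rose with FXRα4. The probe set (10371784) read 7.03, 6.94 and 7.08 on the FXRα1 arrays, 7.16, 7.11 and 7.04 on the FXRα2 arrays, 6.90, 7.0 and 6.96 on the FXRα3 arrays, 7.39, 7.42 and 7.33 on the FXRα4 arrays, against 6.94, 6.94 and 7.03 on the GFP arrays. All 3 FXRα4 arrays lay above every other array, and those of the other groups lay close to GFP. Nr1h4 averaged 7.38 ± 0.05 with FXRα4 and 6.97 ± 0.05 with GFP (SD, n = 3 each), a log2 change of 0.41 ± 0.07 (SE) or 1.33-fold, with an adjusted p from limma of 0.000117. With FXRα1 the change was 0.04 ± 0.07 (adjusted p from limma 0.812), with FXRα2 0.14 ± 0.07 (0.175) and with FXRα3 -0.02 ± 0.07 (0.955). The FXRα2 arrays did not overlap the GFP arrays, yet the difference missed the threshold. With the arrays centred on their medians the FXRα4 change was 0.20 (adjusted p from limma 0.0233), and the FXRα1 and FXRα2 changes turned negative, neither past the threshold. In such bulk samples fewer cells of a type and less RNA per cell cannot be told apart.

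The mouse Nr1h4 start in RefSeq's promoter table (GRCm38.p6) lies 27.0 kb inside the gene from its 5′ end. The window from 250 bases before to 50 after that start is shown because it holds a receptor hexamer, at chr10:89506609-89506908 on the minus strand, with the hexamer in capitals.
Nr1h4: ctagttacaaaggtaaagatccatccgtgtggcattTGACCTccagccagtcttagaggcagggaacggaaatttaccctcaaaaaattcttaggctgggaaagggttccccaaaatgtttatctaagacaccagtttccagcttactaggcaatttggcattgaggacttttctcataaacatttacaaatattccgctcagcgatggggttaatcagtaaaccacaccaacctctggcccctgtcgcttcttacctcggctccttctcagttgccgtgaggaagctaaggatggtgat
The capitals, TGACCT, are AGGTCA read on the other strand, and begin 214 bases before the start. AGGTCA on either strand was found in 16.3% of the 32851 promoter windows in the table and in 3 of the 11 windows that belong to 7 of the 8 receptors (Nr1h4, 1 of Rxra and 1 of Thrb). Nr3c1 was left out of the receptor windows, so whether its promoter holds the hexamer was not tested. Pairs of exact AGGTCA hexamers, searched on both strands, were rarer and in 0 of the 11: AGGTCA facing TGACCT 1 base apart (inverted) was in 0.00913% of all windows, TGACCT and then AGGTCA 2 bases apart (everted) in 0.0152%, and AGGTCA repeated directly in 0.0396% at 1 base apart and 0.0152% at 4. Each pair contains the hexamer, and these letters in a window are a description and not a binding site.

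Nr1i2 encodes PXR, the xenobiotic sensor that induces Cyp3a genes, and it changed in all 4 comparisons with GFP, upward with FXRα1 and FXRα2 and downward with FXRα3 and FXRα4. Its probe set (10439411) read 6.61, 6.28 and 6.76 on the FXRα1 arrays, 7.85, 7.62 and 7.76 on the FXRα2 arrays, 5.68, 5.50 and 5.70 on the FXRα3 arrays, 5.77, 5.76 and 5.86 on the FXRα4 arrays, against 6.29, 6.08 and 6.12 on the GFP arrays. The FXRα2 arrays lay above all others, the FXRα3 and FXRα4 arrays lay below all others, and FXRα1 overlapped GFP at its lowest array. The means were 6.55 ± 0.24 in FXRα1, 7.75 ± 0.12 in FXRα2, 5.62 ± 0.11 in FXRα3 and 5.79 ± 0.06 in FXRα4, against 6.16 ± 0.11 in GFP (SD, n = 3 each). It was 3.0-fold higher with FXRα2, a log2 change of 1.58 ± 0.11 (95% interval 1.35 to 1.81, adjusted p from limma 1.35e-10). Among the 8 members no other change against GFP reached 2-fold. Among the 42 nuclear receptors measured it was the widest change with FXRα2, with Hnf4a close behind at 1.54. With FXRα1 the change was 0.39 ± 0.11 (1.31-fold, adjusted p from limma 0.0223). With FXRα3 Nr1i2 fell by 0.54 ± 0.11, to 0.689 of the GFP level (adjusted p from limma 0.00145). With FXRα4 it fell by 0.37 ± 0.11, to 0.775 of the GFP level (adjusted p from limma 0.0123). The FXRα1 call was lost without FXRα1 replicate 1 (0.36) or 3 (0.28) or GFP replicate 2 (0.35) or 3 (0.37), at adjusted p from limma between 0.0834 and 0.151. From the groups of the contrast alone it was lost too (adjusted p from limma 0.0528). The FXRα4 call was lost without GFP replicate 1 (-0.30, adjusted p from limma 0.0709), and centring on the medians moved it to -0.58 and quantile normalization to -0.57.

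Ppara, the receptor that drives the fasting program of fatty acid oxidation, rose only with FXRα2 among the 4 comparisons with GFP. Its probe set (10425987) read 6.53, 6.42 and 6.49 on the FXRα1 arrays, 7.11, 6.97 and 7.12 on the FXRα2 arrays, 6.19, 6.24 and 6.18 on the FXRα3 arrays, 6.29, 6.20 and 6.40 on the FXRα4 arrays, against 6.24, 6.43 and 6.39 on the GFP arrays. The FXRα2 arrays stood apart above the other 12, which lay within 6.18 and 6.53. Ppara averaged 7.06 ± 0.08 with FXRα2 and 6.35 ± 0.10 with GFP (SD, n = 3 each), a log2 change of 0.71 ± 0.09 or 1.64-fold (adjusted p from limma 8.81e-07). Its changes were 0.13 in FXRα1, -0.15 with FXRα3 and -0.05 with FXRα4, none past the threshold. With FXRα4 it passed as lower after quantile normalization (-0.21, adjusted p from limma 0.0432) and median centring (-0.26, 0.00857).

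Across the 15 arrays Nr1i2 and Ppara correlated with r = 0.96, the highest of the 28 receptor pairs, over arrays that share their groups. The order of the group means was the same for both genes, from FXRα2 through FXRα1, GFP and FXRα4 to FXRα3. Neighbouring groups were not all apart: for Ppara the GFP arrays overlapped those of FXRα1 and of FXRα4, and FXRα4 overlapped FXRα3. RefSeq's promoter windows (GRCm38.p6) of this pair are shown because the genes move together, and capitals mark CpG dinucleotides. The Nr1i2 window is chr16:38294775-38295074 on the minus strand and the Ppara window is chr15:85735526-85735825 on the plus strand.
Nr1i2: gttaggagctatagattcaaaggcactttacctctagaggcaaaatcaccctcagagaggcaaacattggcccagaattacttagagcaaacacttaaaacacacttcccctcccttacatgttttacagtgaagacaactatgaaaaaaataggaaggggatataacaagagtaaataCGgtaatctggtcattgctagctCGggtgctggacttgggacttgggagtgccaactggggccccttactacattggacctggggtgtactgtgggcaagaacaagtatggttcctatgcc
Ppara: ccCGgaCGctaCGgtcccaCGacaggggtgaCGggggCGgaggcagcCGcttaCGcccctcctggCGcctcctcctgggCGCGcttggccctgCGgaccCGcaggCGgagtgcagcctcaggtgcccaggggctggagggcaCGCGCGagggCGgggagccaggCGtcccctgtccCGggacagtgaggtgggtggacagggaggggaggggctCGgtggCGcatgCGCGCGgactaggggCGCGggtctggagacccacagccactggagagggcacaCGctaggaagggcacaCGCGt
The Nr1i2 window holds 2 CpG and is 45.33% G and C, whereas the Ppara window holds 30 CpG and is 74.67% G and C. Over all 32851 windows the median was 7 CpG (quartiles 3 and 20) and 52.7% G and C, so the 2 windows lie on opposite sides. Neither holds AGGTCA or TATAAA on either strand, and 13.6% of all windows hold TATAAA.

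**Figure D2:**
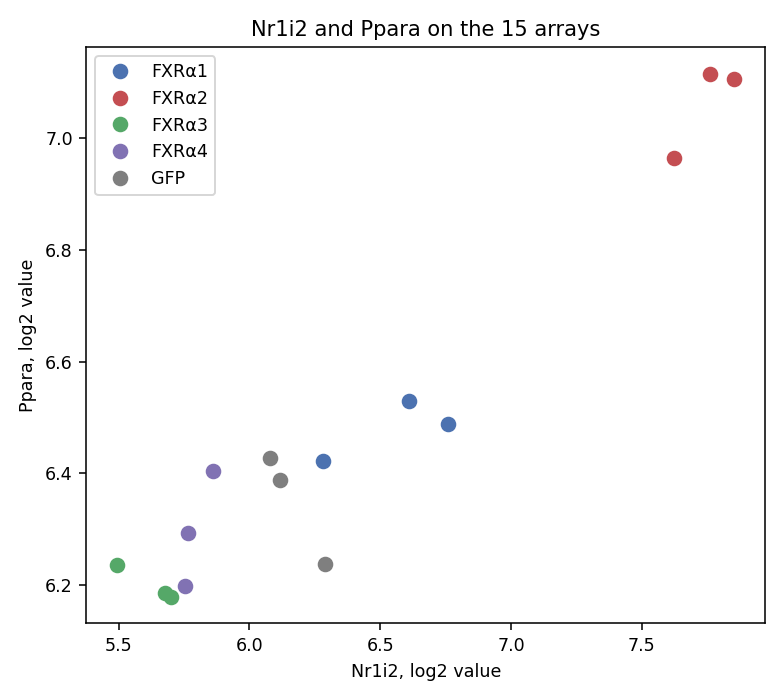
Ppara (vertical) against Nr1i2 (horizontal), both as log2 values, with 1 point an array and colours for the 5 groups. The 3 FXRα2 arrays lie at the upper right, apart from the other 12, and the FXRα3 arrays at the lower left (r = 0.96 over 15 arrays, a description).

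Nr1h3 encodes LXRα, the oxysterol receptor of lipogenesis and sterol export, and its differences were small. It read 8.34, 8.36 and 8.46 on the FXRα1 arrays, 8.56, 8.57 and 8.60 on the FXRα2 arrays, 8.21, 8.28 and 8.38 on the FXRα3 arrays, 8.40, 8.57 and 8.52 on the FXRα4 arrays, against 8.39, 8.49 and 8.62 on the GFP arrays. Only FXRα3 lay wholly below GFP. With FXRα3 it averaged 8.29 ± 0.08, against 8.50 ± 0.11 with GFP (SD, n = 3 each), and fell by 0.21 ± 0.07 (adjusted p from limma 0.0387). That call was lost without FXRα3 replicate 1 (-0.17) or 2 (-0.21) or GFP replicate 2 (-0.21) or 3 (-0.15), at adjusted p from limma of 0.0924 to 0.234. Fitting without the variance trend lost it too (adjusted p from limma 0.0653). After median centring Nr1h3 also passed as lower with FXRα1 (-0.22, adjusted p from limma 0.0157), FXRα2 (-0.14, 0.0426) and FXRα4 (-0.22, 0.00552), the FXRα2 change with its sign turned.

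The heterodimer partners passed in none of the comparisons with GFP on the deposited scale. Rxra read 9.21, 8.93 and 9.16 on the FXRα1 arrays, 9.18, 8.94 and 9.17 on the FXRα2 arrays, 9.01, 8.86 and 9.01 on the FXRα3 arrays, 8.82, 8.73 and 8.94 on the FXRα4 arrays, against 8.90, 8.92 and 8.97 on the GFP arrays. The highest Rxra arrays belonged to FXRα1 and FXRα2, and both groups overlapped GFP. Rxrb read 8.28, 8.26 and 8.22 on the FXRα1 arrays, 8.27, 8.34 and 8.41 on the FXRα2 arrays, 8.17, 8.22 and 8.19 on the FXRα3 arrays, 8.30, 8.25 and 8.28 on the FXRα4 arrays, against 8.26, 8.32 and 8.36 on the GFP arrays, and stayed within 0.24 of itself over all 15 arrays. On that scale Rxrb passed the threshold in 0 of the 9 contrasts fitted and Rxra in 1. In single contrasts against GFP the log2 changes of Rxra ran from -0.10 to 0.17 and those of Rxrb from -0.12 to 0.02. The 4 Nr1i2 changes, as point values, lie outside their 95% intervals. The interval of Nr1i2 itself overlapped that of Rxra with FXRα1 (0.16 to 0.62 against 0.01 to 0.33) and those of both partners with FXRα4. Differences between genes were not tested. After median centring Rxra fell with FXRα4 by 0.31 (adjusted p from limma 0.000363), and Rxrb fell with FXRα2 by 0.20 (0.00577) and with FXRα4 by 0.25 (0.00112).

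Nr3c1, the glucocorticoid receptor, was highest in the GFP group. It read 8.79, 8.81 and 8.86 on the FXRα1 arrays, 8.90, 8.81 and 8.83 on the FXRα2 arrays, 8.55, 8.58 and 8.71 on the FXRα3 arrays, 8.93, 8.86 and 8.95 on the FXRα4 arrays, against 9.14, 8.96 and 8.93 on the GFP arrays. The 3 FXRα3 arrays were the lowest of the 15. Nr3c1 averaged 8.61 ± 0.09 with FXRα3 and 9.01 ± 0.11 with GFP (SD, n = 3 each), and fell by 0.39 ± 0.06, to 0.761 of the GFP level (adjusted p from limma 7.28e-05). It fell by 0.19 ± 0.06 with FXRα1 (adjusted p from limma 0.0473) and by 0.16 ± 0.06 with FXRα2 (0.0449), while the FXRα4 change of -0.10 missed the threshold (0.270). The FXRα1 call was lost without any 1 FXRα1 array (-0.17 without replicate 1, -0.19 without 2, -0.21 without 3) and without GFP replicate 1 (-0.12) or 2 (-0.21). It was also lost without the variance trend, with array weights, with every probe set tested and from the groups alone. The FXRα2 call was lost without FXRα2 replicate 2 (-0.14) or 3 (-0.15) or GFP replicate 1 (-0.10). Without the variance trend, with array weights and from the groups alone the FXRα2 call was lost as well. Median centring moved the changes to -0.29 with FXRα1 and -0.38 with FXRα2, and put the FXRα4 change past the threshold (-0.31, adjusted p from limma 0.000132).

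Thrb encodes the thyroid hormone receptor that predominates in liver. It read 6.14, 6.18 and 6.42 on the FXRα1 arrays, 6.34, 6.71 and 6.68 on the FXRα2 arrays, 6.27, 6.17 and 6.26 on the FXRα3 arrays, 6.10, 6.35 and 6.23 on the FXRα4 arrays, against 6.37, 6.10 and 6.08 on the GFP arrays. Thrb averaged 6.58 ± 0.21 with FXRα2 and 6.18 ± 0.16 with GFP (SD, n = 3 each), and rose by 0.39 ± 0.11 or 1.31-fold (adjusted p from limma 0.00929), although the lowest FXRα2 array lay below the highest GFP array. This call did not survive leaving out FXRα2 replicate 2 (0.33, adjusted p from limma 0.0565) or GFP replicate 3 (0.34, 0.0534), nor did it hold after quantile normalization (0.23, 0.107) or median centring (0.17, 0.142). The other 3 isoforms left Thrb within 0.07 of GFP in the group means.

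**Figure D3:**
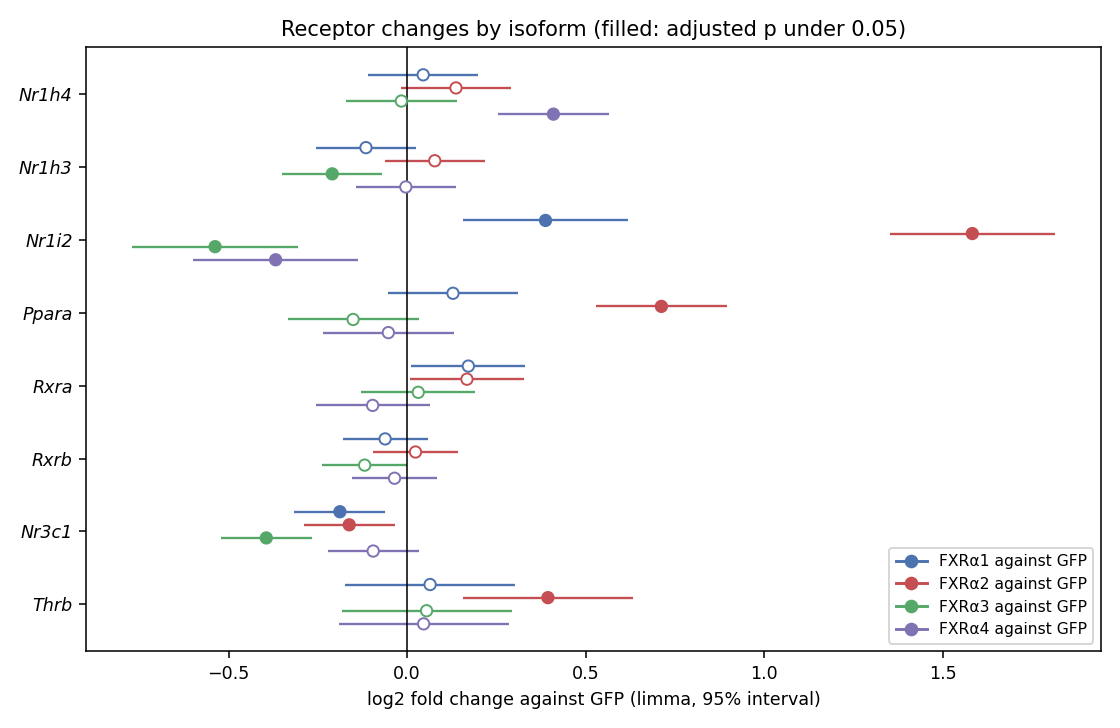
Log2 fold changes against GFP (horizontal) of the 8 measured receptors (vertical) for FXRα1, FXRα2, FXRα3 and FXRα4, with 95% intervals from limma on 3 arrays a group; filled points have an adjusted p under 0.05 and the line marks no change. Nr1i2 lies at 0.39 (FXRα1), 1.58 (FXRα2), -0.54 (FXRα3) and -0.37 (FXRα4), and Ppara at 0.71 with FXRα2.

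Set against each other, every receptor that passed on the deposited scale was higher in the isoform without the insert, where the N-terminus was the same. Between FXRα2 and FXRα1, 4 of 8 receptors rose and 0 fell, where 31.3% of all genes were called (14.1% higher, 17.1% lower). Nr1i2 was 2.29-fold higher with FXRα2 (1.2 ± 0.11, adjusted p from limma 1.86e-08) and Ppara rose by 0.58 ± 0.09 (1.71e-05). Thrb rose by 0.33 ± 0.11 (adjusted p from limma 0.0313) and Nr1h3 by 0.19 ± 0.07 (0.0317), while Nr1h4 differed by 0.09 ± 0.07 (0.399). The Nr1h3 call was lost without FXRα1 replicate 1 (0.17) or 2 (0.18) or FXRα2 replicate 1 (0.20), 2 (0.19) or 3 (0.18), from the groups alone, and after median centring (0.08, adjusted p from limma 0.318). The Thrb call was lost without FXRα1 replicate 1 (0.28) or 2 (0.30) or FXRα2 replicate 2 (0.26) or 3 (0.28), from the groups alone, after quantile normalization (0.26, adjusted p from limma 0.0639) and after median centring (0.21, 0.107).

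Between FXRα4 and FXRα3, which share the longer N-terminus, 3 of 8 receptors rose and 0 fell, beside 29.5% of all genes called (15.8% higher, 13.8% lower). Nr1h4 was 1.34-fold higher with FXRα4 (0.43 ± 0.07, adjusted p from limma 9.83e-05), Nr3c1 1.23-fold higher (0.30 ± 0.06, 0.000554), and Nr1h3 rose by 0.21 ± 0.07 (0.0226). Nr1i2 differed by 0.17 (adjusted p from limma 0.299). Median centring took Nr1h4 to 0.25, Nr3c1 to 0.13 (adjusted p from limma 0.0741) and Nr1h3 to 0.03 (0.650), and Rxra then fell by 0.30 (0.000585). The Nr1h3 call was also lost without FXRα3 replicate 1 (0.17) or 2 (0.20) or FXRα4 replicate 2 (0.17) or 3 (0.20).

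The longer N-terminus went with lower Nr1i2 both with and without the insert. Between FXRα3 and FXRα1, 2 of 8 receptors fell and 0 rose, beside 6.86% of all genes called (2.21% higher, 4.65% lower). Nr1i2 fell by 0.93 ± 0.11, to 0.526 of its FXRα1 level (adjusted p from limma 8.98e-06), and Nr3c1 by 0.21 ± 0.06 (0.0444), while Nr1h4 differed by -0.06 (0.748). Ppara differed by -0.28 ± 0.09 and missed the threshold (adjusted p from limma 0.0600), although the arrays of both groups did not overlap. The Nr3c1 call was lost without FXRα1 replicate 1 (-0.22), 2 (-0.21) or 3 (-0.19) or FXRα3 replicate 1 (-0.18) or 2 (-0.19), and under quantile normalization (-0.14), median centring (-0.14) and centring on the 75th percentile (-0.15). It was lost as well without the variance trend, with every probe set tested and from the groups alone.

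Between FXRα4 and FXRα2, 5 of 8 receptors changed (1 up, 4 down), beside 23.7% of all genes called (11.7% higher, 12% lower). Nr1i2 was 3.87-fold lower with FXRα4 (-1.95 ± 0.11, adjusted p from limma 3.62e-11), and Ppara fell by 0.76 ± 0.09, to 0.589 of its FXRα2 level (8.84e-07). Nr1h4 rose 1.21-fold (0.27 ± 0.07, adjusted p from limma 0.00894), so this pair of isoforms had Nr1h4 and Nr1i2 in opposite order. Thrb fell by 0.35 ± 0.11 (adjusted p from limma 0.0298) and Rxra by 0.26 ± 0.08 (0.0139), both with overlapping arrays. The Rxra call was lost without FXRα2 replicate 1 (-0.22) or 3 (-0.23) or FXRα4 replicate 2 (-0.21). The Thrb call was lost without FXRα2 replicate 2 (-0.28) or 3 (-0.29) or FXRα4 replicate 1 (-0.29) or 3 (-0.35). With array weights (-0.28, adjusted p from limma 0.0797) and from the groups alone (adjusted p from limma 0.0512) it was lost too.

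The effect of lacking the insert differed between the longer and the shorter N-terminus for 4 of 8 receptors, beside 12.9% of all genes called (7.24% higher, 5.63% lower). The difference was -1.03 ± 0.16 for Nr1i2 (adjusted p from limma 0.000123) and -0.48 ± 0.12 for Ppara (0.0113), both of which rose with FXRα2 over FXRα1 and did not pass with FXRα4 over FXRα3. It was 0.33 ± 0.11 for Nr1h4 (adjusted p from limma 0.0389) and 0.27 ± 0.09 for Nr3c1 (0.0402). The Nr1h4 call held without FXRα1 replicate 2, FXRα2 replicate 1 or FXRα4 replicate 3 and was lost without any 1 of the other 9 arrays (0.30 to 0.36, adjusted p from limma up to 0.102). It was also lost after quantile normalization (0.29, adjusted p from limma 0.0578) and median centring (0.28, 0.0775), as was the Nr3c1 call (0.22, 0.0646 and 0.22, 0.0874). The Nr3c1 call was lost without FXRα1 replicate 1 (0.29) or 3 (0.25), FXRα2 replicate 2 (0.25) or 3 (0.26), FXRα3 replicate 1 (0.24) or 2 (0.25), or FXRα4 replicate 1 (0.27) or 3 (0.25). Fitting without the variance trend lost the Nr3c1 call too, and the Nr1h4 call was lost from the groups of the contrast alone.

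Genes outside the members were ranked by how closely they followed a receptor over the 15 arrays, as Pearson's r and as a description. Predicted genes (named Gm with digits, LOC, or ending in Rik) were passed over. Nr1h4 was followed by Ccrl2, a chemerin-binding receptor (0.966), Slc39a10, a zinc importer (0.950), and Gjc3, a connexin (0.950). Nr1i2 was followed by Map3k13, a kinase upstream of JNK (0.984), Chdh, the choline dehydrogenase of mitochondria (0.981), and Tpcn1, an endolysosomal cation channel (0.977). Ppara was followed by Chdh (0.983), Abhd15 (0.980) and Sec14l4 (0.978), so Chdh was among the nearest genes of both. Nr3c1 was followed less closely, by Plxna2 (0.913), Stk40 (0.904) and Kdm5c (0.903).

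The counts of listed genes that follow are against GFP and stand beside 8.42% of all genes higher and 4% lower with FXRα1, 17.5% and 16.7% with FXRα2, 7.45% and 6.62% with FXRα3, and 18% and 15.7% with FXRα4. Among the other nuclear receptors, 34 of 39 were measured. With FXRα1 7 rose and 1 fell, with FXRα2 9 and 4, with FXRα3 2 and 7, and with FXRα4 5 and 5. Hnf4a, the constitutive receptor that maintains hepatocyte identity, rose with all 4 isoforms, by 1.09 (FXRα1), 1.54 (FXRα2), 0.67 (FXRα3) and 0.86 (FXRα4) on the log2 scale (SE 0.05). Of the relatives of Ppara, Pparg fell by 0.72 ± 0.07 with FXRα2, 0.38 with FXRα3 and 0.34 with FXRα4. Ppard fell by 0.42 with FXRα3 and 0.43 with FXRα4, and rose by 0.21 with FXRα2, a call that median centring took away (-0.01). The orphan receptor Nr4a3 rose by 1.24 ± 0.13 with FXRα2 and 1.45 ± 0.13 with FXRα4. Of 21 coregulators measured, 4 rose and 1 fell with FXRα1, 4 and 8 with FXRα2, 5 and 2 with FXRα3, and 6 and 4 with FXRα4. Lpin1, a PGC-1α partner of PPARα and a phosphatidate phosphatase, fell by 1.00 ± 0.07 with FXRα2, 0.45 with FXRα3 and 0.71 with FXRα4. Gps2, a corepressor subunit, rose by 0.74 ± 0.06 with FXRα2, 0.27 with FXRα3 and 0.66 with FXRα4.

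Targets known for each receptor were counted next, beside 12.4%, 34.3%, 14.1% and 33.8% of all genes called with FXRα1 to FXRα4. Of 28 PXR and CAR targets, 3 rose and 3 fell with FXRα1, 7 and 5 with FXRα2, 5 and 6 with FXRα3, and 6 and 9 with FXRα4. The median changes were 0.06, 0.04, 0.01 and 0.05. Abcb1a, a drug efflux pump, rose by 2.14 (FXRα1), 3.04 (FXRα2, 8.22-fold), 1.87 (FXRα3) and 2.38 (FXRα4) on the log2 scale (SE 0.07), and so was higher in the 2 groups where Nr1i2 fell as well. Alas1 of the same list averaged 9.31, 9.81, 8.61 and 8.59 with FXRα1 to FXRα4, against 9.33 with GFP. Its direction with FXRα2, FXRα3 and FXRα4 was that of Nr1i2. Cyp2b10, the classic CAR target, fell with every isoform, by 0.27 (FXRα1), 0.55 (FXRα2), 0.20 (FXRα3) and 0.20 (FXRα4), each ± 0.04. Cyp3a11, the classic PXR target and chosen after its values were seen, changed by 0.29 ± 0.14 with FXRα2 (adjusted p from limma 0.108) and rose with FXRα3 by 0.45 ± 0.14 (0.0301), a call lost after median centring (0.41, 0.0875).

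Of 24 PPARα targets, 6 rose and 2 fell with FXRα1, 11 and 5 with FXRα2, 2 and 3 with FXRα3, and 3 and 6 with FXRα4, with medians of 0.01, 0.17, -0.07 and -0.01. With FXRα2, where Ppara was highest, Creb3l3, a fasting transcription factor of hepatocytes, rose 7.79-fold (2.96 ± 0.07), and it rose by 0.64 with FXRα1 and 2.06 with FXRα4. Pdk4, which restrains glucose oxidation, rose with every isoform, by 1.2 (FXRα1), 2.18 (FXRα2), 0.83 (FXRα3) and 1.17 (FXRα4). Vnn1, a pantetheinase, did so too, by 0.59, 0.98, 0.27 and 0.63 in the same order. Angptl4, an inhibitor of lipoprotein lipase, fell by 0.58 with FXRα2 and 0.69 with FXRα4. Of these targets only Pdk4 is on the FXR target list too, and so is Ppara itself. Of that list of 23 measured, 8 rose and 2 fell with FXRα1, 15 and 4 with FXRα2, 8 and 4 with FXRα3, and 13 and 6 with FXRα4.

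Of 16 LXR targets, 2 rose and 1 fell with FXRα1, 4 and 2 with FXRα2, 0 and 6 with FXRα3, and 2 and 5 with FXRα4. With FXRα3, where Nr1h3 fell, Fasn (fatty acid synthase) fell by 0.33 ± 0.05, Abcg5, a sterol exporter, by 0.51 ± 0.13, and Mlxipl, which encodes ChREBP, by 0.24. Fasn also fell by 0.17 and Abcg5 by 0.37 with FXRα4, while Fasn rose by 0.28 with FXRα2 and Mlxipl by 0.23 with FXRα1, 2 rises that median centring took below the threshold (0.06 and 0.13). Differences with FXRα2 were wider for others of the list. Lpcat3 averaged 11.38 against 10.91 with GFP and Abcg1 5.23 against 4.54, while Tnfaip2 was lower (6.86 against 7.45). Of 20 glucocorticoid receptor targets, 4 rose and 5 fell with FXRα1, 5 and 8 with FXRα2, 3 and 7 with FXRα3, and 3 and 8 with FXRα4. Tat, the glucocorticoid-induced tyrosine aminotransferase, fell with every isoform, by 0.65 (FXRα1), 1.28 (FXRα2), 0.81 (FXRα3) and 1.44 (FXRα4) on the log2 scale (SE 0.07). Other genes of the list went the other way. Lcn2 averaged 12.23, 12.39, 12.45 and 12.38 with FXRα1 to FXRα4 against 12.09 with GFP, and Fkbp5 9.33 with FXRα2 against 8.66. Of 15 thyroid hormone targets, 3 rose and 1 fell with FXRα1, 4 and 1 with FXRα2, 1 and 4 with FXRα3, and 3 and 3 with FXRα4. Hr, a corepressor gene induced by thyroid hormone, rose by 0.68 with FXRα2 and by 0.39 with FXRα4, and the FXRα4 call was lost after quantile normalization (0.22) and median centring (0.18). Thrsp, a lipogenic target, fell by 0.40 with FXRα3 and 0.54 with FXRα4. These lists were chosen with earlier results of these data known, and no list was tested as a set.

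**Figure D4:**
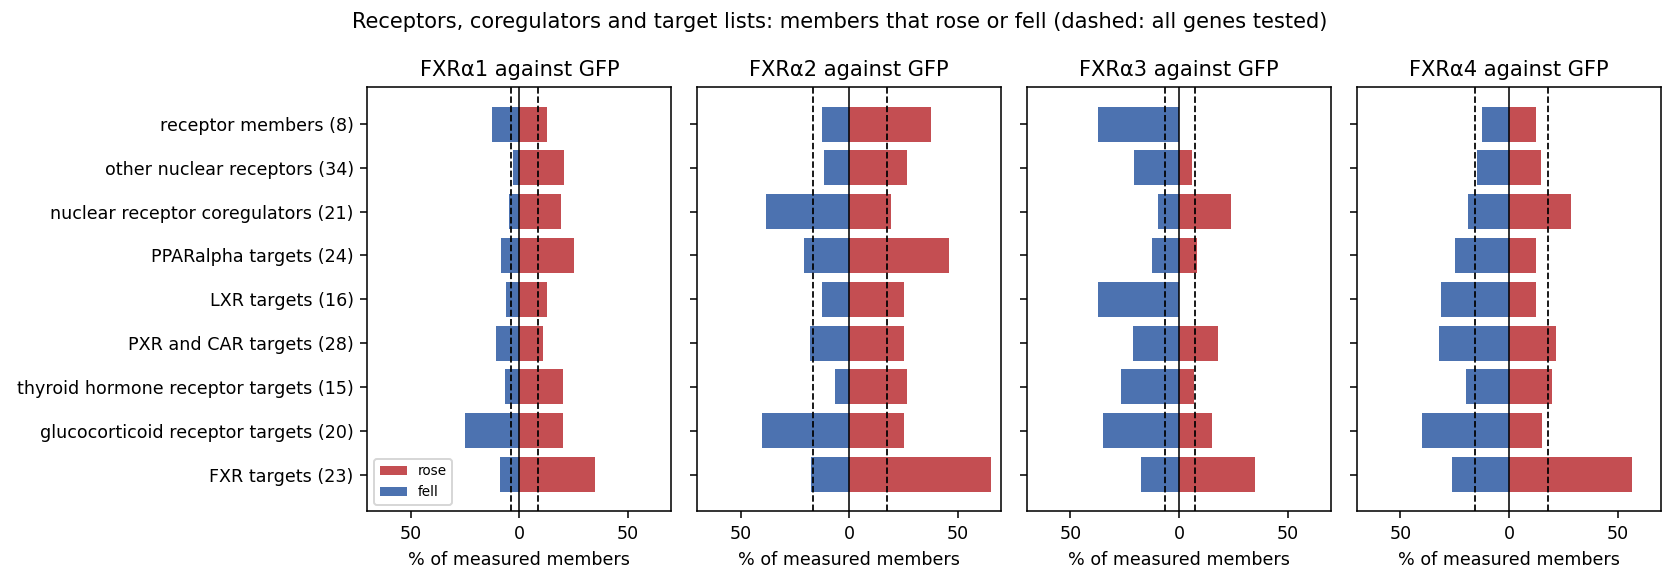
Percent of the measured genes of each list that rose (right of 0) or fell (left of 0) against GFP at an adjusted p under 0.05, for FXRα1, FXRα2, FXRα3 and FXRα4; dashed lines give the same over all 18820 genes. Among the PXR and CAR targets 7 of 28 rose with FXRα2 and 5 fell, and among the PPARα targets 11 of 24 rose with FXRα2 and 5 fell.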

How the data were processed

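RNA of 15 hepatocyte samples in 5 groups of 3 was hybridised to Affymetrix mouse arrays. The analysis began from the deposited value table, which the authors had normalized per probe set to values that the range (1.93 to 13.8) puts on a log2 scale; the log base is not stated. Affymetrix Expression Console 1.1 and PLIER are named, without a role, per the submitters' processing notes, while background correction and between-array normalization are not given in the sources used. Of 35556 probe sets, 21218 carried 1 symbol in the array annotation, 1881 several and 12457 none. For 1386 genes with several, the probe set with the highest mean stood for the gene, giving 18820 genes, unfiltered.

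One mean per group was fitted by limma 3.58.1 (R 4.3.3) over the 15 arrays, with variances moderated along the mean level. Of the 9 contrasts, 4 set an isoform against GFP, 4 set isoforms against each other and 1 is the interaction of insert and N-terminus. Tests were two-sided, with Benjamini-Hochberg adjustment over all genes within a contrast and a threshold of 0.05, and the fit recovered known changes when tested on simulated data. The number of arrays, 3 a group, limits the precision. The members, gene lists and tests were chosen with earlier results of these data known. Named genes are the members past the threshold in a contrast, and Nr1h4 always. From each list they are up to 4 genes with the smallest adjusted p in a contrast, some then followed in the others. The 3 nearest genes, predicted ones passed over, are named for Nr1h4 and the 3 other receptors with the widest range of group means. Alternatives were no variance trend, array weights, only the groups of the contrast, dimmer genes left out (14115 or 9410 kept), quantile normalization, centring on the median or the 75th percentile, a replicate block, a minimum change of 1.5-fold, every probe set, an offset of 16 on the linear scale, and each array left out. Promoter windows of 300 bases came from RefSeq (GRCm38.p6). Python 3.11.15, pandas 2.3.3 and matplotlib 3.10.9 were used.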

Additional observations from a re-analysis of the deposited data

Results flagged for a closer look

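The effect of lacking the insert differed between the isoforms with the longer N-terminus and those with the shorter one for 4 receptors, by the interaction term in limma. The log2 change of FXRα4 over FXRα3 minus that of FXRα2 over FXRα1 was -1.03 for Nr1i2, -0.48 for Ppara, 0.33 for Nr1h4 and 0.27 for Nr3c1. The first 2 passed under every alternative run other than the 1.5-fold minimum, which only Nr1i2 passed, and the last 2 lost their call when most single arrays were left out. Their cause was not tested.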

How the results depend on the processing

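Over 546 refits of the 29 receptor calls, 0 changed direction, 93 missed the threshold and 14 calls were never lost, the 1.5-fold minimum left aside. Those 14 were Nr1i2 in every contrast other than FXRα4 over FXRα3 and FXRα1 and FXRα4 against GFP, Ppara with FXRα2 against GFP and FXRα1, FXRα4 against FXRα2 and the interaction, Nr1h4 with FXRα4 against GFP, FXRα3 and FXRα2, and Nr3c1 with FXRα3 against GFP. Uncalled Nr1h4 changes turned sign: with FXRα1 against GFP to -0.046 (quantile), -0.060 (median centring) and -0.0059 (75th percentile), with FXRα2 against GFP to -0.084 and against FXRα1 to -0.025 (median), and with FXRα3 against FXRα1 to 0.019 (quantile) and 0.0048 (median). With FXRα3 against GFP it ran from -0.040 to 0.014 with arrays left out in turn, positive without FXRα3 replicate 1 or GFP replicate 3.

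Median centring moved the median of all genes by up to 0.22 (log2), and called 13162 genes with FXRα2 and 11787 with FXRα4 against GFP and 9200 with FXRα4 against FXRα3, in place of 6448, 6352 and 5561. Of the genes called, the share that rose was 32.7% (FXRα1), 14.4% (FXRα2), 39.9% (FXRα3) and 16.3% (FXRα4) after median centring, in place of 67.8%, 51.1%, 53.0% and 53.4%. With FXRα1 it was 51.5% on the 75th percentile and 53.8% after quantile normalization. With FXRα2 over FXRα1 it was 22.8% after median centring in place of 45.2%, with FXRα4 over FXRα3 18.4% in place of 53.5%, and for the interaction 44.3% in place of 56.3%. With FXRα3 over FXRα1 it was 58.6% (median), 57.2% (75th percentile) and 48.9% (quantile) in place of 32.2%.

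Receptors called with FXRα1 against GFP numbered 1 without the trend, with array weights and with every probe set, 0 from the groups alone, and 0 to 2 with arrays left out. With FXRα4 against GFP they numbered 7 after median centring (1 up, 6 down) and 1 to 2 with arrays left out. With FXRα2 against FXRα1 they were 2 after median centring and from the groups alone, and 2 to 4 with arrays left out. With FXRα3 against FXRα1 they were 1 after either centring, quantile normalization, with every probe set and from the groups alone, and 1 to 2 with arrays left out. With FXRα4 against FXRα2 they were 3 to 4 with arrays left out. For the interaction they were 2 after quantile normalization and median centring and 2 to 4 with arrays left out. Genes called with FXRα3 against FXRα1 numbered 2046 with array weights and 780 to 1926 with arrays left out, in place of 1291. A minimum of 1.5-fold left 435, 1719, 436 and 1799 genes for FXRα1 to FXRα4 against GFP, with 0, 2, 0 and 0 receptors. It left 1356 genes and 1 receptor with FXRα2 over FXRα1, 1347 and 0 with FXRα4 over FXRα3, 148 and 1 with FXRα3 over FXRα1, 829 and 2 with FXRα4 over FXRα2, and 743 and 1 for the interaction.

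The replicate number as a block kept all 29 receptor calls and moved the count of genes with FXRα3 against FXRα1 to 2117. No other count moved by over 1.5 times. Deviations of the 30 same-numbered array pairs correlated with r from -0.21 to 0.43 (median 0.16). Those of the 60 different-numbered pairs ran from -0.42 to 0.31 (median -0.08). Of the 15 arrays, 13 correlated best with their own number. This is a hint from the data and not the design, so the numbers were not taken to pair samples. The causes of these shifts were not tested.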

Other observations

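Among the 28 pairs of receptors, values over the 15 arrays correlated with r from -0.36 (Nr1h4 with Rxra) to 0.96 (Nr1i2 with Ppara), and 11 pairs exceeded 0.5. Nr1h3 followed Rxrb with r = 0.74, and Thrb followed Nr1i2 with r = 0.70. Nr1h4 was nearly unrelated to Nr1i2 (-0.04) and to Ppara (0.04). The arrays share their groups and their normalization, so these are descriptions.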
